A study of Bos taurus with 38 samples.

Results

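The 150 genes described here were those whose transcript levels differed most from bull to bull among animals of the same diet and period, in RNA-seq of rumen papillae from 38 Holstein Friesian bulls. They were chosen from the measured values themselves. Of 12543 genes listed in both periods, 8265 had a mean level from 10 to below 500 CPM over the 38 bulls, where CPM is reads of a gene per 1000000 reads of the library after the deposited scaling. Among these, 7754 also had differences of group means under 0.4 in size, on the log2(CPM + 1) scale, for RES against ADLIB in Period 1, for Period 2 against Period 1 in RES and for Period 2 against Period 1 in ADLIB. The members are the 150 of those 7754 eligible genes with the largest within-group standard deviation (SD), pooled over the 4 groups, and they are numbered below from 1 (largest SD) to 150.

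Bulls on the restricted treatment (RES) received a limited amount of feed for the 125 days of Period 1. For the 55 days of Period 2 they had free access to feed, after a transition in which intake was built up. The ADLIB bulls had free access throughout. All bulls ate the same diet of 70% concentrate and 30% grass silage. Papillae came from 9 ADLIB and 9 RES bulls on day 125 of Period 1, and from 10 ADLIB and 10 RES other bulls on day 55 of Period 2. Each bull was sampled once, so no animal was followed over time. The labels name rumen epithelium as the tissue, while their RNA extraction text names frozen muscle, and the marker genes that could check this could not be looked up.

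Rumen papillae are the finger-like projections of the rumen wall. A stratified squamous epithelium covers a core of connective tissue with vessels and immune cells, and it takes up the short-chain fatty acids that microbial fermentation releases. Papillae change in size and keratinisation with the amount and kind of feed. In such whole-tissue samples, more cells of one type and more RNA per cell cannot be told apart. The genes carry Ensembl identifiers and none of the 12802 deposited identifiers could be paired with a gene symbol in the tables used here, so the members are described by their number, level and behaviour across bulls, and their functions are not given.

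The libraries held from 5948453 to 11957654 reads assigned to genes, with a median of 9391961.5. The reads assigned to a gene were whole in every library once the value of 1 read had been recovered. The first digit of the library identifiers, which the labels do not explain, went with depth. The 10 libraries with digit 1 held 5948453 to 7349256 reads, fewer than any library with digit 2, 3 or 4. Every digit occurred in every group, but RES Period 1 held 4 libraries with digit 1 and ADLIB Period 1 held 1.

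Pooled within-group SDs of the members ran from 0.50 to 1.10 on the log2(CPM + 1) scale, with a median of 0.57. The median of the other 7604 eligible genes was 0.21. These are the values on which the members were chosen, and they are given as a description. Across the limit there was no break. Members 148, 149 and 150 had SDs of 0.5001, 0.4988 and 0.4977, and the 3 genes just outside had 0.4974, 0.4972 and 0.4969. In CPM, the highest of the 38 bulls lay a median of 6.72 times above the lowest over the 149 members without a library at 0, and from 3.59 to 37.1 times. For the other eligible genes the median was 1.99 times.

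The variance that counting error alone gives was a median of 3.16% of the within-group variance of a member, and at most 8.47%. Among the other eligible genes it was a median of 14.1%. The members were chosen for a large variance, which is the denominator of this share, so the lower share is partly set by the rule. The members were on average lower in level, with a median of 24.1 CPM and quartiles of 14.3 and 51.7 CPM, against a median of 34.8 CPM for the other eligible genes. Levels of members reached from 10.0 to 351 CPM.

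**Figure D1:**
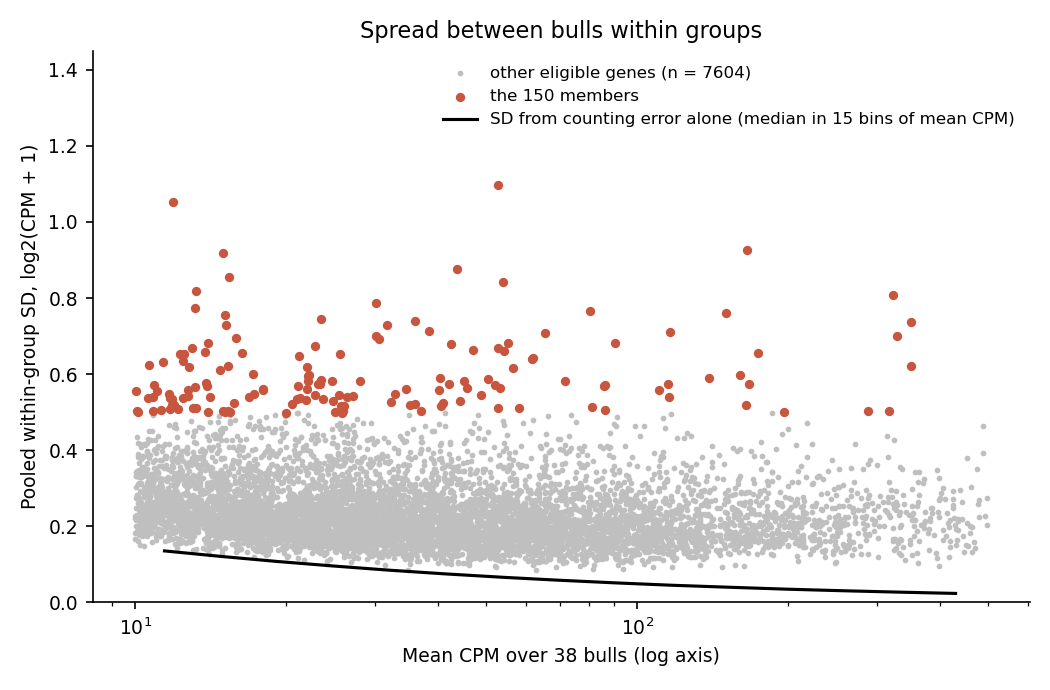
Pooled within-group SD of log2(CPM + 1) against mean CPM over 38 bulls (log axis) for the 7754 eligible genes, 1 point per gene, with the 150 members in red and the SD that counting error alone gives as a black line. Members lie above 0.49 at every level from 10.0 to 351 CPM, while the line stays below 0.2.

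Member 1, identifier ENSBTAG00000035171, had the largest SD, 1.10. In ADLIB Period 1 its lowest, median and highest levels were 5.22, 43.1 and 194 CPM. The corresponding levels were 11.8, 26.7 and 109 CPM in RES Period 1, 11.8, 60.8 and 135 CPM in ADLIB Period 2, and 11.0, 30.7 and 107 CPM in RES Period 2. The ranges of the 4 groups overlapped, ADLIB Period 1 was the widest of them, and the 2 extreme bulls of the whole series, replicates 9 and 7, stood in the same group, ADLIB Period 1. Their levels rested on 57 and 1743 reads, with exact Poisson 95% intervals of 3.95 to 6.76 CPM and 185 to 203 CPM, which cover counting error only.

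Member 2, identifier ENSBTAG00000038128, had an SD of 1.05 at a mean of 11.9 CPM. It was between 4.67 and 26.8 CPM in ADLIB Period 1, between 6.13 and 18.2 CPM in RES Period 1 and between 4.89 and 20.5 CPM in ADLIB Period 2. In RES Period 2 the median was 12.8 CPM and the highest 27.1 CPM, and no read was counted in 2 bulls, replicates 1 and 7. A count of 0 allows a level of up to 0.341 CPM in replicate 1 and 0.332 CPM in replicate 7 (3 reads in each library), while the lowest of the other 8 bulls of the group was at 7.42 CPM. The 2 bulls held 26.8% of the sum of squares of member 2 each and 53.5% together. Without either one the SD was 0.90, and without both it was 0.62.

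Members 3 and 9 showed that wide spread was not confined to weakly expressed genes. Member 3 averaged 165 CPM. It reached from 55.6 to 282 CPM in ADLIB Period 1, from 39.3 to 869 CPM in RES Period 1, from 57.4 to 313 CPM in ADLIB Period 2 and from 61.5 to 301 CPM in RES Period 2. The bull at 869 CPM, RES Period 1 replicate 6, held 23.4% of its sum of squares. Member 9 averaged 323 CPM, and its lowest and highest bulls, at 67.2 and 857 CPM, were ADLIB Period 1 replicates 3 and 4. In RES Period 2 the same gene stayed between 198 and 587 CPM.

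Members 4, 6 and 8 lay near the lower end of the level range, at means of 14.9, 15.4 and 13.2 CPM. For member 4, the highest bull was ADLIB Period 2 replicate 3 at 62.1 CPM and the lowest RES Period 1 replicate 5 at 3.68 CPM. Member 6 covered 2.95 to 49.2 CPM, with both ends in ADLIB Period 2. Member 8 ran from 1.49 CPM in ADLIB Period 2 replicate 5 to 33.6 CPM in RES Period 2 replicate 1. In each of the 3 genes the ranges of the 4 groups overlapped, though they differed in width.

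Member 5 differed among groups in its spread. Its SD was 0.34 in ADLIB Period 1, where it stayed between 27.1 and 55.4 CPM, 0.74 in RES Period 1, 0.76 in ADLIB Period 2 and 1.31 in RES Period 2, where it ran from 9.07 to 207 CPM. Group medians lay between 31.7 and 39.4 CPM, so that the groups shared their centre but not their width. Member 7, in contrast, had SDs of 0.85, 0.77, 0.95 and 0.79 in the same order, and no bull held more than 10.0% of its sum of squares.

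The remaining members among the leading 20 had SDs from 0.71 to 0.79. Member 17 was the most abundant of them, at a mean of 351 CPM. In RES Period 2 its median was 203 CPM and its highest bull, replicate 5, was at 1378 CPM, so that 30.7% of its sum of squares came from that animal. Member 12, at a mean of 80.4 CPM, spread mainly in RES Period 1, from 18.2 to 194 CPM (SD 1.27), compared with 49.5 to 109 CPM in ADLIB Period 1 (SD 0.36). Member 20 was highest in ADLIB Period 2 replicate 9 at 146 CPM, against a group median of 30.4 CPM.

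**Figure D2:**
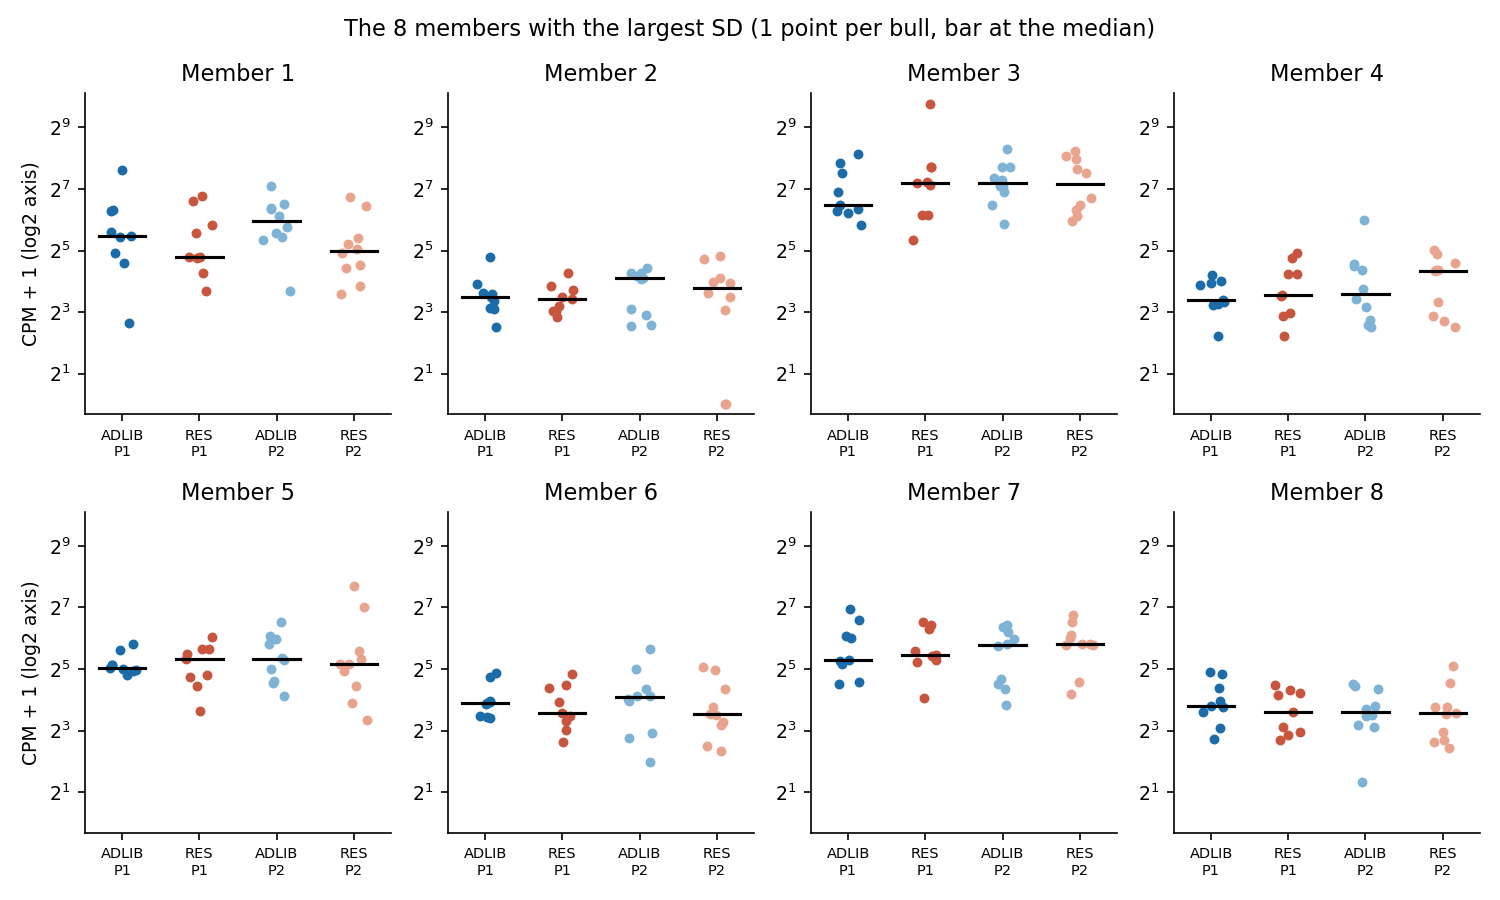
CPM + 1 on a log2 axis for members 1 to 8, 1 point per bull, with the median of each group as a bar; P1 and P2 are Period 1 and Period 2. Groups overlap in each of the 8 genes, and the 2 bulls without a read of member 2 in RES Period 2 sit at 1.

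The wide spread of the members was present in all 4 groups. The median SD over the 150 members was 0.62 in ADLIB Period 1, 0.59 in RES Period 1, 0.54 in ADLIB Period 2 and 0.53 in RES Period 2, against 0.20, 0.19, 0.23 and 0.21 for the other eligible genes. In all 4 groups, 145 members exceeded the upper quartile of the other eligible genes in that group, and the remaining 5 did so in 3 groups. The group with the largest SD of a member was ADLIB Period 1 for 46 members, RES Period 1 for 36, ADLIB Period 2 for 30 and RES Period 2 for 38. Among the other eligible genes, ADLIB Period 2 was the group of largest SD for 37.8% of genes and ADLIB Period 1 for 19.6%. Because the pooled SD selected the members, these counts carry no test.

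Selecting genes in the bulls of one period and measuring them in the other avoids that circularity for the genes so selected, since no bull was in both. Those genes are not the same list as the 150 members, for which the circularity stays. The same rule applied to the 18 Period 1 bulls alone gave 150 genes whose median SD was 0.67 in those bulls. In the 20 Period 2 bulls, their median SD was 0.56, while the remaining genes eligible in Period 1 had a median of 0.23. All 150 lay above that median and 144 (96.0%) above the 90th percentile of the remaining genes, 0.36. In the other direction, the 150 genes chosen in Period 2 bulls had a median SD of 0.71 there and of 0.64 in Period 1 bulls, where the remaining genes had a median of 0.20. Of these, 146 (97.3%) lay above the 90th percentile of 0.35.

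The lists themselves overlapped less. Those of the separate periods shared 44 genes, which is 29.3% of each list. The Period 1 list shared 92 genes with the 150 members and the Period 2 list 48. Each of these lists was limited only by the diet difference within its own period, so genes that shifted between the periods could enter them.

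**Figure D3:**
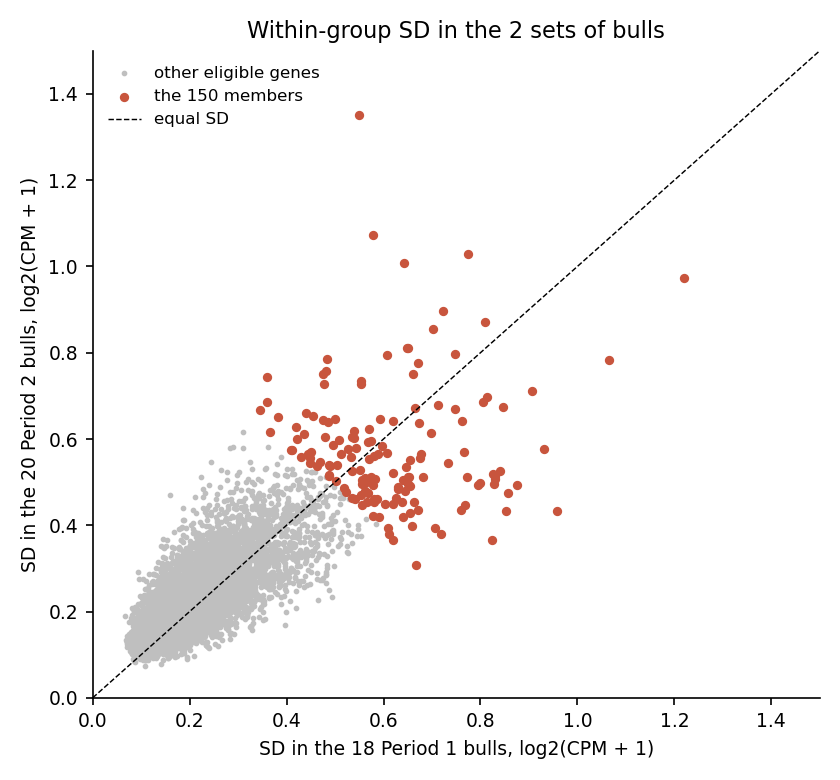
Within-group SD of log2(CPM + 1) in the 20 Period 2 bulls against that in the 18 Period 1 bulls, 1 point per eligible gene, members in red, with a dashed line of equal SD. Members sit apart from the other eligible genes on both axes, although the pooled SD that chose them combines the 2 axes.

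The limit on group differences also shaped the list. It removed 511 genes of the level window, and 208 of them (40.7%) had a within-group SD above the lowest member, with a median of 0.46 over the 511. Without that limit, the 150 genes of largest SD would have included 44 of the members.

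Group means of the members differed little, as the rule required. RES minus ADLIB in Period 1 ranged from -0.37 to 0.40 on the log2 scale, with 73 members higher and 77 lower in RES. Within RES, Period 2 minus Period 1 ranged from -0.40 to 0.40, and within ADLIB from -0.37 to 0.40. The difference of RES and ADLIB in Period 2 was not limited directly, although it follows from the other 3. It was 0.4 or more in size in 9 members (6.00%) and in 6 of the other eligible genes (0.0789%). Differences of means vary more in genes with a large SD, for which the members were chosen, so this contrast is partly set by the rule. Member 1 had the most negative value, -0.81, with medians of 30.7 CPM in RES and 60.8 CPM in ADLIB and ranges that overlapped. For member 54 it was 0.53, the highest.

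None of the 150 members passed an adjusted p of 0.05 in any of the 4 comparisons of groups (limma, Benjamini-Hochberg adjustment over all genes tested). Over all genes, the percentage called was 0.00792 for RES against ADLIB in Period 1 (1 of 12627 genes), 0 in Period 2 (0 of 12581), 1.63 for Period 2 against Period 1 within RES (204 of 12531) and 0 within ADLIB (0 of 12513). At an unadjusted p under 0.05, the members numbered 0, 3, 1 and 1 in the same order, and the percentages over all genes were 9.24 (1167 genes), 4.82 (606), 15.5 (1944) and 5.73 (717). DESeq2 called 59, 0, 453 and 1 genes and edgeR's quasi-likelihood test 1, 0, 197 and 0, with 0 members in each. As the rule removed genes with group differences and kept those with large SDs, these counts follow from the choice of members. The 2 diet comparisons use different bulls, while each comparison over time shares its animals with the diet comparisons.

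The spread was distributed unevenly over the bulls. ADLIB Period 1 replicate 4 held 7.43% of the members' summed squared deviations from group means, ADLIB Period 2 replicate 9 held 5.78%, RES Period 2 replicate 1 held 4.92%, ADLIB Period 1 replicate 3 held 4.77% and ADLIB Period 2 replicate 1 held 4.06%. An even share would be 2.63% per bull. Together these 5 animals held 27.0%, and 17.8% of the same sum over the other 7604 eligible genes. Their libraries, at 8002967 to 10940559 reads, were not the shallowest of the series, which belonged to RES Period 1 replicate 5 with 3.35% of the members' sum. The 5 animals were picked by the members' own sum, so their lower share in the other genes is partly set by that choice. In the other eligible genes the largest share was 6.71%, in ADLIB Period 2 replicate 5 (6190228 reads). That bull held 2.66% of the members' sum.

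ADLIB Period 1 replicate 4 was the most extreme bull for 28 members, above its group mean in 20 and below in 8. For ADLIB Period 2 replicate 9 these numbers were 19, 6 and 13, and for ADLIB Period 1 replicate 3 they were 15, 1 and 14. RES Period 2 replicate 1 was the most extreme for 13 members, above in 9.

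In no member did 1 bull hold more than 50% of the sum of squares. The largest share of a single bull was a median of 17.8% per member, from 8.47% to 45.9%, and it exceeded 25% in 22 members. It was highest in member 126, which was at 316 CPM in RES Period 2 replicate 1 and at 141 CPM or less in the other 37 bulls. Without that animal, its SD fell from 0.51 to 0.37, below the limit. Member 27 was next, at 45.7%. It was at 10.9 CPM in ADLIB Period 1 replicate 4 and between 43.1 and 204 CPM elsewhere, and its SD without that bull was 0.48. Over all members, leaving out the most extreme bull of each gave SDs from 0.37 to 0.99, with a median of 0.51. Both singled-out genes were picked after their values were seen.

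Bulls rarely fell into separated levels. Only member 81 had a gap of 1 or more on the log2 scale with at least 3 bulls on either side. Its gap was 1.03 wide, with 35 bulls up to 54.5 CPM and 3 at 113, 130 and 136 CPM. These 3 were RES Period 1 replicates 4 and 1 and ADLIB Period 1 replicate 4. Those RES libraries read alike in many members. The count of 3 bulls rests on their being separate animals, which was not tested. Deviations from the group mean were skewed downward in 86 members and upward in 64 (42.7%), compared with 47.6% skewed upward among the other eligible genes.

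Many members rose and fell together across bulls. Average-linkage clustering of the deviations from group means, with 1 minus Pearson's r as the distance and a limit of r = 0.5, gave 6 sets of 5 or more genes with 82 members in all, and left 68 members in smaller sets or alone. The sets held 28, 21, 12, 10, 6 and 5 members. They were found from the values and carry no test. The score of a bull in a set is the mean of its deviations over the genes of the set, after each gene was scaled to an SD of 1.

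Set 1 was the largest, with a mean r of 0.67 between its genes. Its leading genes by correlation with the score were members 23 (r = 0.96), 72 (r = 0.95) and 9 (r = 0.94). Member 23 was expressed at 98.3 to 848 CPM in ADLIB Period 1, 156 to 490 CPM in RES Period 1, 71.7 to 671 CPM in ADLIB Period 2 and 251 to 502 CPM in RES Period 2. Scores were highest in ADLIB Period 1 replicate 4 (1.77) and ADLIB Period 2 replicate 1 (1.65), and lowest in ADLIB Period 1 replicate 3 (-2.19) and ADLIB Period 2 replicate 9 (-2.13). The set thus spread most among ADLIB bulls, with score SDs of 1.12 and 0.96 in the 2 ADLIB groups, against 0.68 in RES Period 1 and 0.35 in RES Period 2. This order was seen after the sets were formed and was not tested.

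Set 2 had a mean r of 0.64, led by members 24 (r = 0.95) and 29 (r = 0.94). Member 24 reached 122 CPM in ADLIB Period 1, where the median was 21.0 CPM, and 78.1 CPM in RES Period 1, while it stayed at 39.7 and 45.4 CPM or less in the 2 groups of Period 2. ADLIB Period 1 replicate 4 had a score of 2.28 and the next bull of its group 0.16. RES Period 1 replicates 4 and 1 were both at 1.50. The same 3 libraries were those at the upper level of member 81, which belonged to this set. Those RES libraries read alike in many members, and whether they came from separate animals was not tested. Genes of the set correlated more strongly in Period 1 bulls (mean r = 0.75) than in Period 2 bulls (mean r = 0.49).

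Set 3 ran opposite to set 2, with Pearson's r of -0.80 and Spearman's rho of -0.72 between the scores of the 38 bulls, and r of -0.73 without the 2 bulls farthest from the median in set 2. Its r was -0.84 within Period 1 and -0.74 within Period 2. The set was led by members 116 and 94 (r = 0.87 each). Member 116 was lowest in ADLIB Period 1 replicate 4 at 18.1 CPM, the bull with the highest score of set 2, and the group's median was 44.0 CPM. The highest scores of set 3 were those of RES Period 2 replicates 6 (1.40) and 7 (1.34).

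Set 4 was the most tightly correlated, with a mean r of 0.76 over all bulls, 0.81 in Period 1 and 0.70 in Period 2. Member 97 led it (r = 0.95) and covered 12.3 to 50.1 CPM in ADLIB Period 1, 9.44 to 39.8 CPM in RES Period 1 and 11.0 to 40.6 CPM in RES Period 2, and reached 42.4 CPM in ADLIB Period 2. In each group the lowest score lay farther from 0 than the highest. These were RES Period 1 replicate 6 (-2.14), ADLIB Period 1 replicate 5 (-1.99), RES Period 2 replicate 3 (-1.46) and ADLIB Period 2 replicate 7 (-1.46). None of the 4 bulls was at an end of set 1 or set 2 in its group. Scores of set 4 correlated with those of the other sets at r from -0.37 to 0.06.

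Sets 5 and 6 were small. Set 5 was led by member 56 (r = 0.90), which ranged from 9.66 to 44.4 CPM over the 38 bulls, and its mean r was 0.63 in Period 1 and 0.60 in Period 2. The bulls at the top were ADLIB Period 1 replicate 4 (1.66) and RES Period 2 replicate 1 (1.49). In set 6 the genes varied together mainly in Period 2, with a mean r of 0.82, against 0.32 in Period 1. Member 101, its leading gene (r = 0.91), reached 25.4 CPM in RES Period 2, where its median was 9.19 CPM, and stayed between 6.44 and 13.6 CPM in ADLIB Period 1. The score SD of set 6 was 1.35 in RES Period 2 and 0.40 in ADLIB Period 1. RES Period 2 replicates 1 (1.98) and 4 (1.89) were highest and replicates 6 (-1.75) and 7 (-1.59) lowest.

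**Figure D4:**
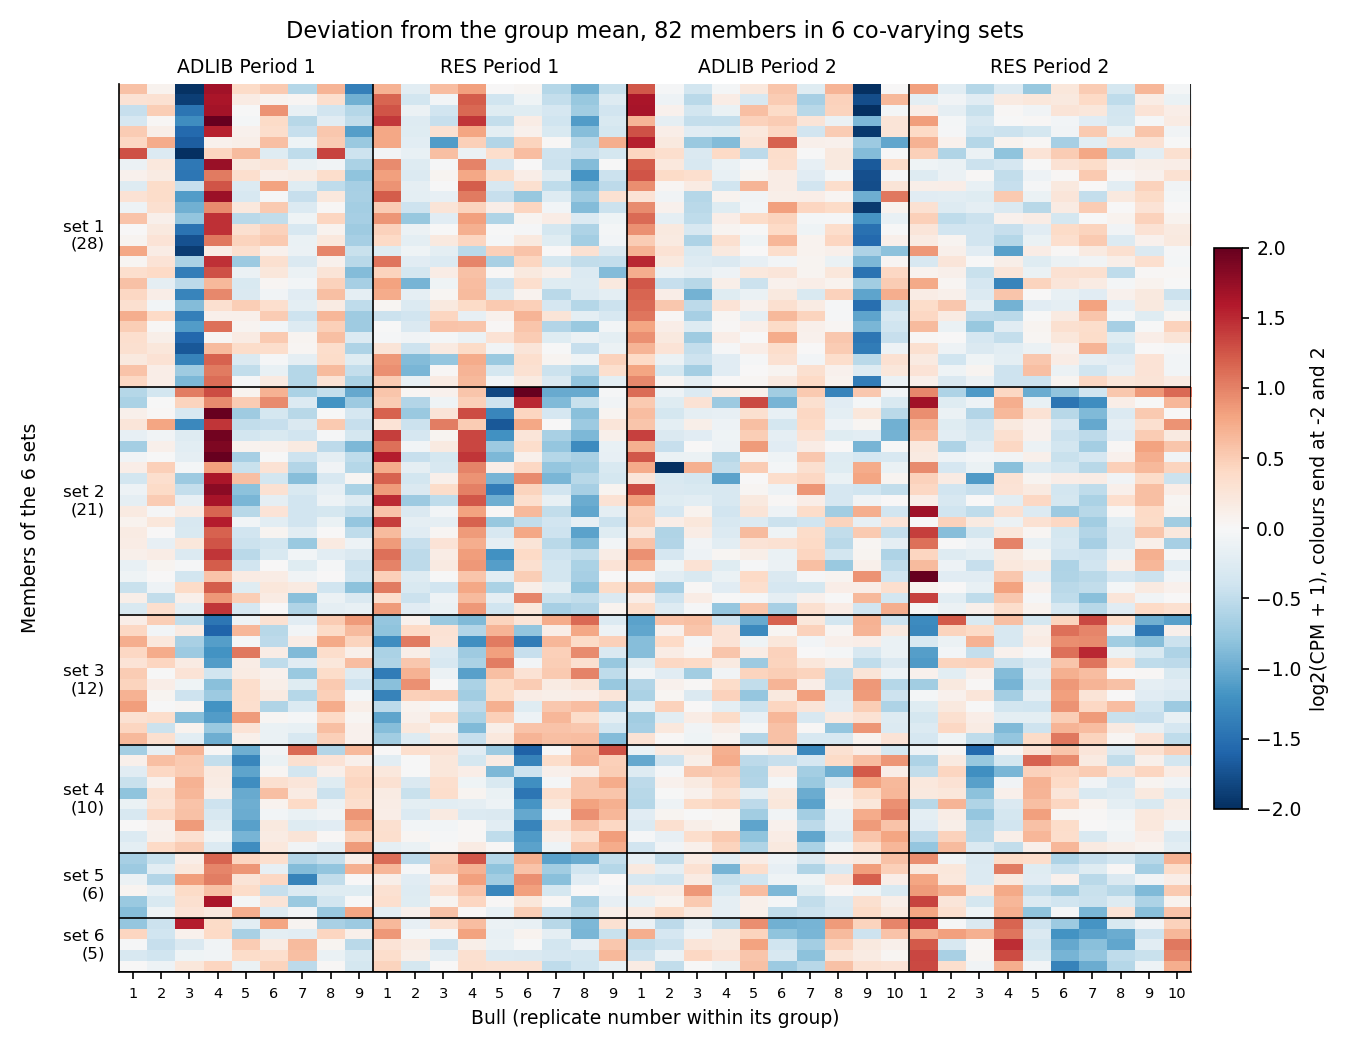
Deviation of log2(CPM + 1) from the group mean for the 82 members of the 6 sets (rows) in the 38 bulls (columns), red above and blue below the group mean. Columns of 1 colour within a set, such as ADLIB Period 1 replicates 3 and 4 in set 1, mark bulls in which the genes of that set deviated together.

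Sets 2, 3, 5 and 6 were not independent of each other. Scores of set 5 followed those of set 2 (r = 0.63, rho = 0.58) and set 6 (r = 0.62, rho = 0.62), and scores of set 6 ran opposite to those of set 3 (r = -0.69, rho = -0.72). Sets 1 and 2 correlated at r = 0.53 over all bulls, at 0.74 in Period 1 and at 0.14 in Period 2. All scores of a bull come from 1 library, and 15 pairs of sets were compared.

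**Figure D5:**
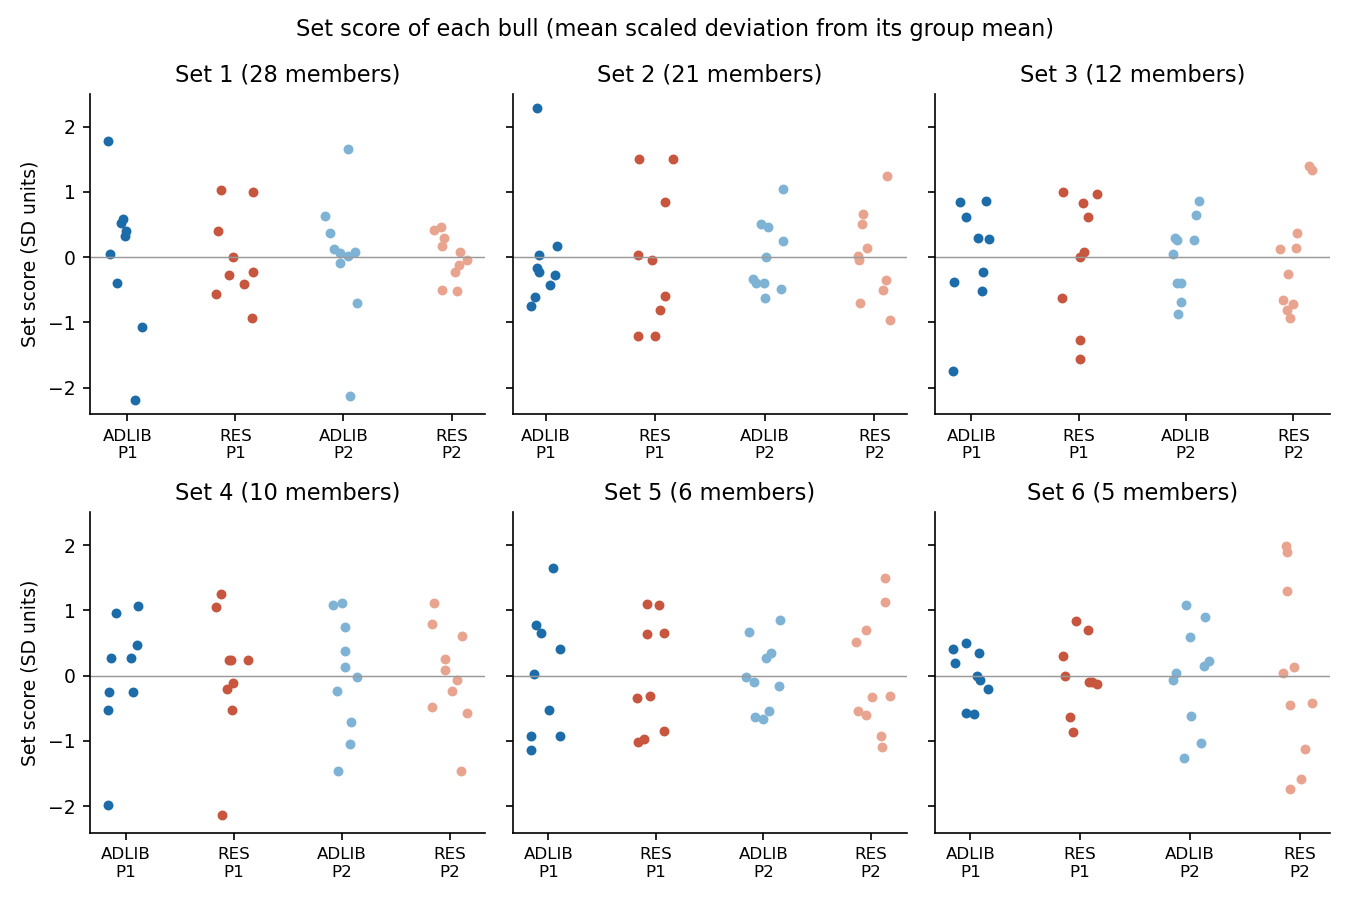
Score of each bull in the 6 sets, in SD units of the deviation from its group mean, 1 point per bull; P1 and P2 are Period 1 and Period 2. Set 1 spreads from -2.19 to 1.77 in ADLIB Period 1 and from -0.52 to 0.46 in RES Period 2, while set 6 spreads most in RES Period 2.

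Grouping the members in the bulls of one period and measuring the groups in the other showed how far the sets recurred. This comparison was added after the data were seen. Clustering in Period 1 bulls alone gave 5 sets with 87 members, whose mean r in Period 2 bulls was between 0.32 and 0.70, against 0.01 over all pairs of members there. Clustering in Period 2 bulls gave 8 sets with 92 members, with a mean r in Period 1 bulls between 0.32 and 0.70, against 0.05 over all pairs. The 10 genes of set 4 came out as the same 10 genes in Period 1 bulls, and the 28 genes of set 1 as the same 28 in Period 2 bulls. The other matches were partial. In Period 1 bulls, 23 genes of set 1 fell into a larger set of 46 genes with a mean r of 0.33 in Period 2, and no set had its largest overlap with set 2 or set 6. In Period 2 bulls, 14 genes of set 2 came out in a set of 16, and again no set had its largest overlap with set 6. With the genes of each set held fixed and any single bull left out, the lowest mean r was 0.62 in set 1, 0.59 in sets 2 and 3, 0.73 in set 4, 0.60 in set 5 and 0.66 in set 6. When the clustering itself was repeated, the 10 genes of set 4 stayed together whichever bull was left out, and the other sets changed. No gene of set 6 remained in a set of 5 or more without ADLIB Period 1 replicate 3, ADLIB Period 2 replicate 6 or RES Period 2 replicate 4. At most 6 of the 12 genes of set 3 stayed together without RES Period 1 replicate 1 or 4, and 7 without RES Period 2 replicate 6. Of set 2, 12 of 21 genes did so without ADLIB Period 1 replicate 3, and of set 1 at least 22 of 28 whichever bull was left out.

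The sets reached beyond the 150 members. Among the 12393 genes of the series that are no members, 196 correlated with the score of set 1 at r of 0.7 or more, and 0 at -0.7 or less. The corresponding numbers were 261 and 86 for set 2, 114 and 78 for set 3, 324 and 1 for set 4, 65 and 28 for set 5, and 47 and 19 for set 6. The first axis of a principal component analysis held 27.0% of the scaled variance of the members and 17.6% of that of the other eligible genes. It corresponded most closely to the second axis of those other genes, at r = 0.69 in size over the 38 bulls.

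The set scores were also compared with depth. Pearson's r between the score and log2 of the reads, both as deviations from group means, was -0.01 for set 1, 0.24 for set 2, -0.23 for set 3, 0.01 for set 4, 0.15 for set 5 and 0.14 for set 6, and Spearman's rho lay between -0.21 and 0.27. Without the 2 bulls farthest from the median score, r lay between -0.26 and 0.23. Bulls with library digit 1 had mean scores of -0.31 in set 2 and 0.44 in set 3, and bulls with digit 4 had 0.22 and -0.10. After the digit was fitted beside group, the mean r within the 6 sets, with their genes held fixed, was between 0.61 and 0.78. Clustering those deviations anew kept together all 10 genes of set 4 and all 6 of set 5, but 23 of 28 genes of set 1, 13 of 21 of set 2, 7 of 12 of set 3 and none of set 6.

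The rule did not use the library digit, but variance that goes with the digit is part of the SD that chose the members. With the digit fitted beside group, 140 of the 150 members were chosen again. The shares of members below are thus not free of that choice. With limma's moderated F test of the digit beside group, 0 of the 150 members had an adjusted p under 0.05, and 0.207% of all genes tested were called (26 of 12543). At an unadjusted p under 0.05 there were 12 members (8.00%), against 5.49% of all genes (689). By edgeR's quasi-likelihood test, 0 members passed the adjusted threshold and 10 the unadjusted one. Over all 12543 genes, 27 (0.215%) passed the adjusted threshold and 687 (5.48%) the unadjusted one. Member 12 had the smallest p of the members (p = 0.000646 unadjusted, limma adjusted p = 0.246). Its median was 101 CPM in the 10 libraries with digit 1, 73.9 CPM with digit 2, 73.2 CPM with digit 3 and 45.4 CPM with digit 4, and the ranges of the 4 digits overlapped. The limma adjusted p of member 12 fell to 0.0491 without ADLIB Period 1 replicate 9 and to 0.0404 without ADLIB Period 2 replicate 3. In other fits it rose. The smallest limma adjusted p of any member was 0.739 without RES Period 1 replicate 1 and 0.698 without RES Period 1 replicate 4. Both bulls had digit 4 and were the lowest for member 12, at 18.2 and 18.3 CPM. With digits 2, 3 and 4 only, that smallest value was 0.944, and by edgeR's quasi-likelihood test 0.663.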

How the data were processed

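Single-end libraries of 38 rumen papillae samples were sequenced, and the authors aligned reads to the bovine assembly UMD3.1, counted them per Ensembl gene with HTSeq and scaled them with edgeR. The deposited signal is reads per gene per 1000000 of the TMM-scaled library size, called CPM here. The scaling was done within each period, and genes with low counts were left out by the authors. Whole reads were recovered by dividing by the value of 1 read (tolerance 0.05 reads). Groups followed the sample labels. The rule for members was applied to log2(CPM + 1) with Python 3.11.15. Group comparisons were tested with limma 3.58.1 (trend), TMM scaling and the filter of edgeR 4.0.16. The library digit was tested with limma (trend) on the deposited scale, without that filter. Both used Benjamini-Hochberg adjustment over all genes tested. Period comparisons used both periods scaled together by TMM. The expected unit was CPM with columns summing to at most 1000000. The deposited columns can exceed it because of the scaling, which changes no test. Alternatives were edgeR's quasi-likelihood test and DESeq2 1.42.0 on recovered reads, another pseudocount (0.1), RLE scaling, no filter and each bull left out. The member rule and the recovery of the value of 1 read were tested on simulated data. So were the limma tests of the digit and of RES against ADLIB in Period 1. The members and lists were chosen with earlier results of these data known. Genes to be described were the 20 with the largest SD, up to 6 per set by correlation with its score, those with separated levels or 1 dominant bull, the 5 with the smallest digit p and those at the SD limit, with at most 2 printed by identifier. Fewer are described where they repeat a pattern. Marker and pathway lists could not be applied without gene symbols. Each replicate was taken as 1 bull. Some libraries read alike in many members. ADLIB Period 1 replicates 1 and 8 were at 77.1 and 78.0 CPM in member 1 and at 400 and 427 CPM in member 9. RES Period 1 replicates 1 and 4 were at 209 and 209 CPM in member 3 and at 18.2 and 18.3 CPM in member 12. In member 46 the same libraries differed, at 15.9 and 5.46 CPM and at 5.57 and 21.3 CPM. Whether these libraries came from separate animals was not tested. Intervals and floors cover counting error only. A change in log2(CPM + 1) understates that of low genes.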

Additional observations from a re-analysis of the deposited data

Results flagged for a closer look

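Dixon's ratio was taken in 104 groups of values (20 leading members and 6 set scores in 4 groups). By it, 9 values stood apart from the rest of their group. Chance gives about 1 in 20 groups only where the groups were not selected. The members were chosen for a large SD in these same values and the sets were formed from them, so the count carries no test. Low values were those of member 1 in ADLIB Period 2 replicate 4 (11.8 CPM, the next bull at 39.8 CPM), member 4 in ADLIB Period 1 replicate 6 (3.69 CPM, the next at 8.40 CPM), member 8 in ADLIB Period 2 replicate 5 (1.49 CPM, the next at 7.75 CPM), member 9 in ADLIB Period 2 replicate 9 (67.6 CPM, the next at 211 CPM) and member 12 in RES Period 2 replicate 9 (23.9 CPM, the next at 47.5 CPM). High values were those of member 17 in RES Period 2 replicate 5 (1378 CPM, the next at 318 CPM), member 18 in ADLIB Period 1 replicate 4 (70.6 CPM, the next at 15.6 CPM) and member 18 in RES Period 2 replicate 1 (22.2 CPM, the next at 13.7 CPM). The score of set 2 was 2.28 in ADLIB Period 1 replicate 4 and 0.16 in the next bull of that group. Members 9 and 18 belong to set 1, so 3 of the 9 values share genes that vary together.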

How the results depend on the processing

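Of the 150 members, 84 were also chosen with the median absolute deviation in place of the SD, 92 in Period 1 bulls only, 48 in Period 2 bulls only, 53 without the limit on mean CPM and 44 without the limit on group differences. The other settings kept 123 (replicate number as a block) to 149 (RLE scaling), and 120 to 144 with 1 bull left out. The number of sets was 5 to 8 and that of their members 75 to 93 with 1 bull left out, and 6 to 9 sets with 74 to 112 members under the other alternatives. Members called in the 4 group comparisons numbered 0 under every alternative run. For the library digit with 1 bull left out, 0 to 1 members were called, and 24 to 28 of all 12543 genes. With the replicate block, 1 member was called for the digit (member 12, limma adjusted p = 0.0239), and 16 of all 12543 genes (0.128%). Replicate numbers were not treated as pairs in the main fits. Of the same-numbered bulls compared, 6 of 9, 3 of 10, 4 of 9 and 4 of 9 pairs had deviations correlated above 0.1. For RES and ADLIB in Period 1 the mean r of such pairs was 0.148 (highest 0.664), against -0.0178 for other pairs. In the other comparisons it lay between -0.0136 and 0.0558. Whether the numbers mark pairs was not tested. The block moved the number of genes called from 204 to 119 within RES and from 1 to 2 between diets in Period 1. In Period 1, 59 genes were called by DESeq2, 1 by edgeR and 1 to 13 with 1 bull left out. Fitting the library digit left 103 genes called within RES, and DESeq2 called 453. Depth limits the precision of single low values, such as the 2 libraries without a read of member 2, and its part in the order of the members was not tested beyond the subtraction of counting variance, after which 144 members were kept.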
